A study of Arabidopsis thaliana with 39 samples.

Results

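The genes that assimilate ammonium in Arabidopsis thaliana were followed through a time course in which seedlings received L-glutamate (L-Glu), urea or salicylic acid (SA). They were taken by locus identifier as the known genes of both enzymes: 6 genes for glutamine synthetase (GS) and 3 for glutamate synthase (GOGAT). Of the 9 genes, 8 have a row among the 20001 genes of the table, and GLN1;5 (AT1G48470) was not analysed here. All 8 passed the filter on low values (3 or more libraries at 1 or above), as did every gene of the table, and none of the 8 was at 0 in any library.

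RNA was sequenced from Col-0 wild-type seedlings, 14 days old, which after 2 days in the cold had grown in liquid culture under continuous light at 23 degrees C on a medium with 1% sucrose. Treatments were 20 mM L-Glu, 20 mM urea or 1 mM SA, each sampled at 6, 12, 24 and 48 h, and a mock group with no dose given was sampled at 0 h only. Each of the 13 groups had 3 libraries, 39 in all. Urea is a nitrogen source given at the same molar concentration as L-Glu and served as the comparison at each time. Differences of L-Glu from urea are thus relative to seedlings that received another nitrogen compound, not to untreated ones. No nitrogen compound is named beside SA, so SA differs from urea and from L-Glu in added nitrogen as well. The parts of SA and of added nitrogen in those comparisons cannot be told apart. Whether the 3 libraries of a group came from separate cultures is not stated, and the tests therefore reflect variation among these libraries only, which may be technical.

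Glutamine synthetase joins ammonium to glutamate and makes glutamine, and glutamate synthase passes the amide group of glutamine to 2-oxoglutarate, which returns glutamate. The plastid enzyme GS2, encoded by GLN2, together with ferredoxin-dependent GOGAT, mainly from GLU1, recaptures the ammonium that photorespiration releases in leaves. The cytosolic GS1 enzymes, from the GLN1 genes, assimilate ammonium in roots and in the vasculature and remobilise nitrogen in ageing leaves. GLT1 encodes the NADH-dependent GOGAT of non-green tissue, and GLU2 a further ferredoxin-dependent enzyme, known mainly from roots. L-Glu is thus both the substrate of the first enzyme and the product of the second.

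Positions are those of assembly TAIR10.1, on which 5 of the measured genes share chromosome 5. GLN2 (AT5G35630) lies at chr5:13830429-13833542 on the plus strand and GLU1 (AT5G04140) at chr5:1129785-1138488 on the plus strand. Of the cytosolic GS genes, GLN1;1 (AT5G37600) lies at chr5:14933286-14935885, GLN1;2 (AT1G66200) at chr1:24655115-24657703 and GLN1;4 (AT5G16570) at chr5:5421589-5424749, all on the minus strand, while GLN1;3 (AT3G17820) lies at chr3:6097201-6099595 on the plus strand. GLU2 (AT2G41220) lies at chr2:17177539-17188836 and GLT1 (AT5G53460) at chr5:21700187-21710296, both on the plus strand. Values are for whole genes, and no isoform was told apart.

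The GS genes are close relatives, which matters for reading values by gene. A 60-base window of the coding sequence, read from the RefSeq annotation of assembly TAIR10.1, shows how far the measured copies differ. Capitals mark bases that differ from GLN1;1, positions 55 to 114 are shown for the cytosolic genes, and GLN2 is shown from 229 to 288 because its coding sequence begins with a longer leader.
GLN1;1: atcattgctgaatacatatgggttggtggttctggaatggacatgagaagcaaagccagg
GLN1;2: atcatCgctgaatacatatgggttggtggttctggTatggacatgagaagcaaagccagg
GLN1;3: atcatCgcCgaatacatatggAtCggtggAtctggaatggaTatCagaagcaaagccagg
GLN1;4: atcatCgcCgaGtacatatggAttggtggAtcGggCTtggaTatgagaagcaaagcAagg
GLN2: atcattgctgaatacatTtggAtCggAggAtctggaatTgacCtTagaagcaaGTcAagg
Against GLN1;1, the window differs at 2 bases in GLN1;2, 7 in GLN1;3, 10 in GLN1;4 and 11 in GLN2. Over the aligned coding sequence, GLN1;1 and GLN1;2 were 87.5% identical, while GLN1;1 and GLN2 were 70.4% identical. No stretch of 50 bases in a transcript of any GS gene or of GLU2 occurred in a transcript of another gene. For GLU1 it was 0.547% of stretches and for GLT1 1.02%, where their ends overlap those of neighbouring genes. GLT1 overlaps ACBP1 on the same strand over 127 bases, with no statement of how reads there were assigned, while GLU1 overlaps BHLH101 over 79 bases on the opposite strand.

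The promoters of the 2 genes that fell furthest under L-Glu are shown as the 250 bases before the annotated start, in TAIR10.1, which is not necessarily the build behind the deposited values. Both lie on chromosome 5, on the plus strand. Capitals mark the letters TTGAC, the core of the W-box that WRKY factors bind, on either strand (GTCAA on the strand printed).
GLN2, chr5:13830179-13830428: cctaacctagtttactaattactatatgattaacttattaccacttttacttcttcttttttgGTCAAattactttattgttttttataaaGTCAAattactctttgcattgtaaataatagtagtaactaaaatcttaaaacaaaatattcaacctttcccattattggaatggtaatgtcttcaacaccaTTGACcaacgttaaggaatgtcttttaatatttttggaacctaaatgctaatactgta
GLU1, chr5:1129535-1129784: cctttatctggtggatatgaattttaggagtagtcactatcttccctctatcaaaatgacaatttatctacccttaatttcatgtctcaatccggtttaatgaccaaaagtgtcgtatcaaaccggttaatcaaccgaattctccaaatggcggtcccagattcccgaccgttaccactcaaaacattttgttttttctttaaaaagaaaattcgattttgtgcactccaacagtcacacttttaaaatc
The GLN2 window holds TTGAC at 58, 159 and 187 bases before the start, and the GLU1 window holds none. Of 19504 annotated promoters of the same length, 45.5% hold it. The other motifs searched on both strands were GATAAG (in 2389 promoters), CACGTG (7.33%) and TGACG (19.5%), and none of these letters is in either window. GLT1 has GATAAG at 49 bases before its start, and GLN1;2 and GLN1;4 have TTGAC at 102 and 140 bases. These are matches of letters only.

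Values are normalized signal per gene, and the library totals ran from 2445645 to 5886170, the highest 3 being the L-Glu libraries at 24 h, while library medians ran only from 46.35 to 56.94. Depth is unknown. A pair of libraries stood apart from their groups in a principal component analysis: L-Glu 6 h replicate 2 (first component -43.0, against 5.38 and 9.73) and L-Glu 48 h replicate 2 (second component 46.9, against 3.24 and 3.63). With both left out, 7 of 176 member results lost their call and 3 gained one, and these are given beside the results or in the closing section. Differences are on the scale of log2(value + 1), with the standard error (SE) of one limma fit across all genes, and a gene was called when its Benjamini-Hochberg adjusted p over all 20001 genes was under 0.05. In bulk seedlings, fewer cells of a type and less RNA per cell cannot be told apart.

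**Figure D1:**
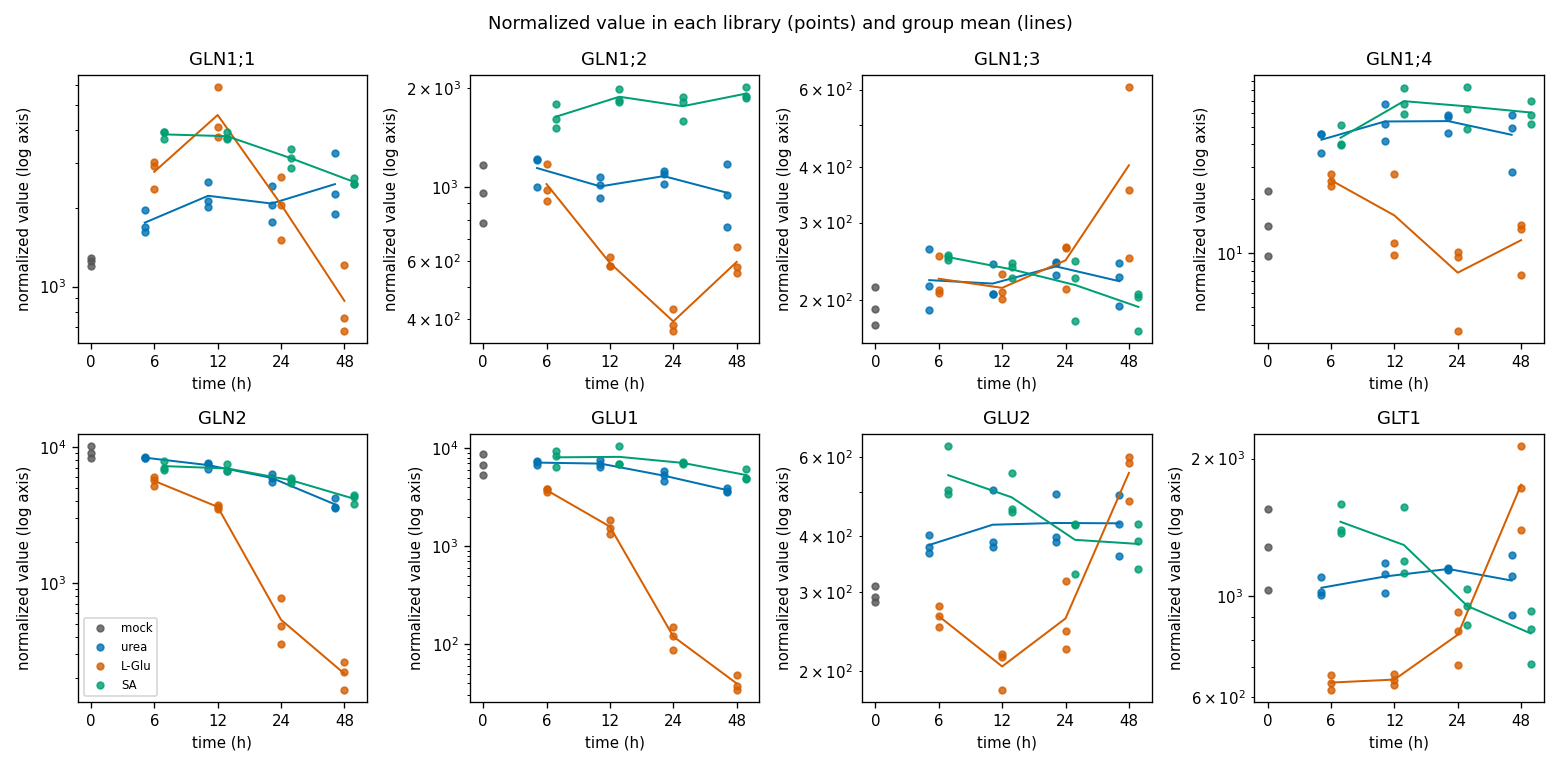
Normalized value (log axis) of the 8 measured genes against time (h, evenly spaced), with a point for each library and lines through the group means for mock, urea, L-Glu and SA. GLN2 and GLU1 fall to 3-library means of 214.7 and 39.68 in L-Glu at 48 h, GLN1;1 peaks at 4579 in L-Glu at 12 h, and GLT1 and GLU2 are highest in L-Glu at 48 h.

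The leaf plastid pair, GLN2 and GLU1, fell at every time in L-Glu relative to urea. GLN2 read 5133 to 6034 in L-Glu at 6 h and 3504 to 3746 at 12 h, then 483, 769 and 355 at 24 h and 261, 163 and 221 at 48 h. The urea libraries read 8295, 8438 and 8324 at 6 h, 7598, 7551 and 6921 at 12 h, 5907, 6358 and 5528 at 24 h, and 3556, 4195 and 3603 at 48 h. The L-Glu libraries were below the urea libraries at every time, with no overlap. The difference was -0.57 (SE 0.184, adjusted p = 0.0362, limma) at 6 h, -1.02 (SE 0.184, adjusted p = 2.18e-05) at 12 h, -3.54 (SE 0.184, adjusted p = 9.29e-18) at 24 h and -4.16 (SE 0.184, adjusted p = 1.35e-19) at 48 h. At 48 h this is a 17.8-fold lower level. The 6 h call was lost when any of L-Glu 6 h replicates 1 or 3 or urea 6 h replicates 1, 2 or 3 was left out (adjusted p = 0.0879, 0.16, 0.086, 0.0982 and 0.0885), with values from -0.51 to -0.59. It was also lost under quantile normalization (-0.22, adjusted p = 0.438) and with equal library totals (-0.57, adjusted p = 0.0517).

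GLU1 had the larger differences. It read 3843, 3561 and 3823 in L-Glu at 6 h, 1872, 1545 and 1342 at 12 h, 87.2, 151 and 121 at 24 h, and 48.16, 36.94 and 33.96 at 48 h. Urea gave 7384, 6802 and 7242 at 6 h, 7624, 6848 and 6457 at 12 h, 4635, 5835 and 5305 at 24 h, and 3578, 3962 and 3679 at 48 h. No L-Glu library reached a urea library of its time. The differences were -0.93 (SE 0.197, adjusted p = 0.00107) at 6 h, -2.15 (SE 0.197, adjusted p = 4.01e-11) at 12 h, -5.47 (SE 0.197, adjusted p = 1.75e-21) at 24 h and -6.54 (SE 0.197, adjusted p = 1.04e-23) at 48 h, a 92.9-fold lower level at the last time. Both genes also declined with time in urea: from 6 to 48 h GLN2 fell by 1.15 (SE 0.184, adjusted p = 4.06e-05) and GLU1 fell by 0.93 (SE 0.197, adjusted p = 0.00101). Under quantile normalization those declines were -0.47 (adjusted p = 0.0511) and -0.31 (adjusted p = 0.25).

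Markers of green tissue moved with these genes. Over 17 genes of photosynthesis (light-harvesting, photosystem and Calvin cycle proteins), 17 were called lower and 0 higher in L-Glu averaged over the times, where 36.4% of all genes were lower and 33.0% higher, with a median of -2.55 against -0.05 over all genes, and the medians were -4.23 at 24 h and -4.82 at 48 h. Their summed value was 155098 to 205511 in mock and 78592 to 81834 in the 48 h urea libraries. L-Glu libraries summed to 6150 to 12730 at 24 h and to 2154 to 2723 at 48 h, and no marker was at 0 in all libraries of a group. No gene of the table was at 0 in the L-Glu 24 h libraries or in L-Glu 48 h replicates 1 and 3. The lack of zeros there thus says nothing on green tissue. At 6 h 2 of the 17 were called lower (PSBO2 and FBA2, -0.51 and -0.65, named after their values were seen), where 3.15% of all genes were, with a median of -0.33, while GLU1 was at -0.93 and GLN2 at -0.57. The part of green tissue in the fall of GLN2 and GLU1 was not tested. Root markers, which whole seedlings should also hold, summed to 5427 to 5907 in mock.

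Among the cytosolic GS genes, GLN1;1 rose early and fell late, GLN1;2 and GLN1;4 fell from 12 h on, and GLN1;3 was called at 48 h only. GLN1;1, a high-affinity GS1, read 3009, 2910 and 2381 in L-Glu at 6 h against 1977, 1617 and 1693 in urea, and 3765, 5868 and 4102 at 12 h against 2032, 2144 and 2534. All L-Glu libraries were above all urea libraries at both times. It was higher by 0.65 (SE 0.203, adjusted p = 0.0312) at 6 h and by 1.01 (SE 0.203, adjusted p = 9.48e-05) at 12 h. At 24 h L-Glu (2643, 2064 and 1507) overlapped urea (2432, 1777 and 2056), and the difference was -0.04 (SE 0.203, adjusted p = 0.884). By 48 h it was lower, at 673, 1215 and 755 against 3262, 1899 and 2279, a difference of -1.50 (SE 0.203, adjusted p = 9.85e-08). Averaged over the times the difference was 0.03 (SE 0.101, adjusted p = 0.805), since the early and late differences have opposite signs, but it was called lower under quantile normalization (-0.76) and with equal library totals (-0.48).

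The early rise of this gene is the less secure part. At 6 h the call was lost without urea replicate 2 or 3 or L-Glu replicate 1 or 2 (adjusted p = 0.121, 0.0965, 0.132 and 0.0716), with values from 0.58 to 0.62, but with both libraries that stood apart left out it was 0.61 (adjusted p = 0.0382). At 12 h it was 0.24 (adjusted p = 0.335) under quantile normalization, and at 24 h it became -1.57 under quantile normalization and -1.12 with library totals set equal, a scaling that moved the median of all genes at that time to -1.10.

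GLN1;2, a low-affinity GS1 that ammonium induces in roots, read 910, 1181 and 982 in L-Glu at 6 h against 1212, 1216 and 1006 in urea, which overlap (-0.16, SE 0.142, adjusted p = 0.548). It then read 616, 582 and 578 at 12 h, 368, 384 and 431 at 24 h, and 661, 575 and 553 at 48 h, against urea values of 929, 1073 and 1021, then 1099, 1025 and 1123, then 1181, 762 and 949. From 12 h on, every L-Glu library was below every urea library of its time. The differences were -0.76, -1.46 and -0.67 (SE 0.142 each, adjusted p = 3.27e-05, 6.27e-11 and 0.000135).

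GLN1;4, another high-affinity GS1 and the least abundant GS gene measured, followed the same course. It read 25.2, 27.4 and 23.4 in L-Glu at 6 h, 11.3, 9.8 and 27.4 at 12 h, 9.558, 3.687 and 10.11 at 24 h and 7.5, 13.5 and 14.3 at 48 h, while urea libraries of all times lay between 28.3 and 67.3. L-Glu libraries lay under urea libraries at each time. The difference was -0.72 (SE 0.334, adjusted p = 0.183) at 6 h, and it was called lower at 12, 24 and 48 h (-1.78, -2.74 and -1.84, with adjusted p = 3.72e-05, 9.79e-09 and 1.71e-05). Because values were so low, the added 1 understates these folds.

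GLN1;3, a low-affinity GS1 of the vasculature, was called at 48 h alone of the times. Its L-Glu and urea libraries overlapped at 6, 12 and 24 h, with differences of 0.02, -0.03 and 0.04 (adjusted p = 0.973, 0.905 and 0.866), and 95% intervals of -0.35 to 0.39, -0.40 to 0.34 and -0.33 to 0.41, although with equal totals it was called lower at 12 h (-0.48, adjusted p = 0.0394) and 24 h (-1.04, adjusted p = 2.38e-05). At 48 h it read 355, 608 and 250 in L-Glu against 226, 194 and 243 in urea, and was called higher (0.78, SE 0.182, adjusted p = 0.000485). The value of 608 is from L-Glu 48 h replicate 2, and without that library the difference was 0.44 (adjusted p = 0.0206). With only the groups compared in the fit, the adjusted p was 0.0556, and with equal library totals the difference was 0.27 (adjusted p = 0.24). Averaged over the times it was 0.20 (SE 0.091, adjusted p = 0.049), a call that leaving out most single libraries ended, L-Glu 48 h replicate 2 among them (0.12, adjusted p = 0.152, or 0.09, adjusted p = 0.256, with both libraries that stood apart left out), and that became -0.05 under quantile normalization and -0.31 with equal totals.

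The other glutamate synthase genes, GLU2 and GLT1, first fell and then rose. GLU2 read 250, 265 and 280 in L-Glu at 6 h, 218, 215 and 181 at 12 h and 245, 224 and 317 at 24 h, below urea values of 366, 377 and 403, then 388, 377 and 507, then 399, 388 and 496. At 48 h it read 581, 600 and 477 against 494, 361 and 425, with an overlap of a single urea library. The differences were -0.53 (SE 0.149, adjusted p = 0.0161) at 6 h, -1.04 (SE 0.149, adjusted p = 5.23e-07) at 12 h, -0.71 (SE 0.149, adjusted p = 0.000107) at 24 h and 0.38 (SE 0.149, adjusted p = 0.033) at 48 h. The rise at 48 h was not called without L-Glu 48 h replicate 1 or 2 or urea 48 h replicate 2 or 3 (0.34, 0.31, 0.26 and 0.38, with adjusted p = 0.0931, 0.121, 0.187 and 0.0646) or without both libraries that stood apart (0.31, adjusted p = 0.123), and its sign turned under quantile normalization (-0.09) and with equal totals (-0.13). At 6 h the call was lost without urea replicate 3 or L-Glu replicate 1 (-0.49 in each case, adjusted p = 0.0698 and 0.0779).

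GLT1, the NADH-dependent enzyme, read 646, 622 and 670 in L-Glu at 6 h, 674, 639 and 654 at 12 h, 705, 838 and 924 at 24 h, and 1728, 2133 and 1398 at 48 h. Urea stayed between 908 and 1229 at all times. L-Glu was thus below urea without overlap at 6, 12 and 24 h, and above it without overlap at 48 h. The differences were -0.69 (SE 0.153, adjusted p = 0.00195), -0.75 (SE 0.153, adjusted p = 0.000131), -0.49 (SE 0.153, adjusted p = 0.00658) and 0.69 (SE 0.153, adjusted p = 0.000285) in order of time. The fall at 24 h was -0.38 (adjusted p = 0.0535) without L-Glu 24 h replicate 1. The rise at 48 h was 0.53 (adjusted p = 0.00614) without L-Glu 48 h replicate 2 and 0.69 (adjusted p = 0.0541) with only the groups compared in the fit, while equal totals gave 0.18 and quantile normalization -0.19, so its direction depends on the scaling.

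Markers of other cell types were followed beside the genes known from roots and vasculature. Of 12 root markers, 2 were called higher and 5 lower in L-Glu averaged over the times, where 33.0% of all genes were higher and 36.4% lower, with a median of -0.34. Their summed value at 48 h was 2555 to 3211 in urea libraries and 16411 to 20887 in L-Glu libraries, most of it from PYK10, a root beta-glucosidase (2.88, SE 0.242, adjusted p = 2.48e-12 at 48 h). At 48 h 3 of the 12 were higher and 2 lower, where 25.2% of all genes were higher and 27.6% lower, so these counts are not by themselves a result. Of 4 phloem markers, 3 were lower and 0 higher at 48 h, and their sum was 576 to 768 in L-Glu against 1378 to 1641 in urea. The part of these tissues in the values of GLN1;3, GLU2 and GLT1 was not tested.

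**Figure D2:**
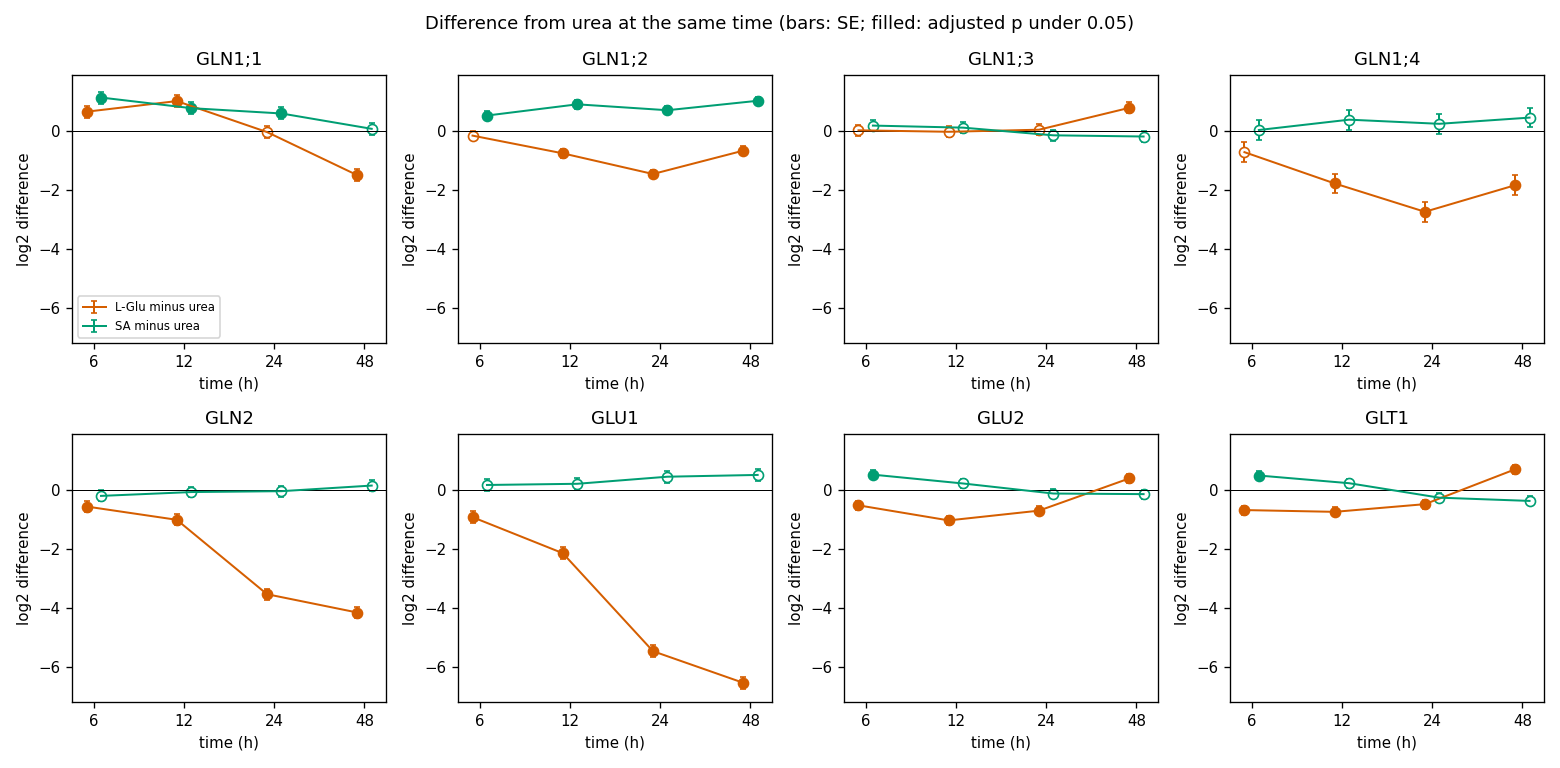
Difference in log2(value + 1) from urea at the same time (h) for L-Glu and SA, with SE bars, filled points where the adjusted p was under 0.05. GLN2 and GLU1 reach -4.16 and -6.54 in L-Glu at 48 h, whereas in SA no point of GLN2 or GLU1 is called and those of GLU1 reach 0.50 at 48 h, and GLN1;2 is above 0 in SA and below it in L-Glu.

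Counted over the 8 genes, L-Glu against urea gave 1 higher and 4 lower at 6 h, when 11.5% of all genes were called (8.36% higher and 3.15% lower). At 12 h it was 1 higher and 6 lower, against 47.7% of all genes (25.8% and 21.9%). At 24 h it was 0 higher and 6 lower, against 60.6% (29.3% and 31.3%), and at 48 h 3 higher and 5 lower, against 52.9% (25.2% and 27.6%). Averaged over the times, 1 was higher and 6 lower, against 69.4% of all genes (33.0% and 36.4%). With this background the number of called members is not by itself a result, and the sizes of the differences in GLN2 and GLU1 carry the description. The median over the members was -0.55 at 6 h and -1.09 at 48 h, where the median over all genes was -0.06. Other scalings moved the split between directions: averaged, it was 0 higher and 7 lower under quantile normalization and 0 higher and 8 lower with equal totals, and at 48 h it was 1 higher and 5 lower, and 0 higher and 5 lower. At 12 h quantile normalization gave 0 higher and 6 lower. At 6 h the count of 5 fell to 2 without urea replicate 3, to 2 without L-Glu replicate 1, and to 3 without urea replicate 2.

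The course of the L-Glu minus urea difference was tested between successive times. From 6 to 12 h it moved down in GLN1;2 (-0.60) and GLU1 (-1.21), 2 of 8 members where 16.5% of all genes changed. That of GLN1;2 was not called without several single libraries, L-Glu 6 h replicate 2 (-0.49, adjusted p = 0.129) and urea 6 h replicate 3 (-0.51, adjusted p = 0.107) among them. From 12 to 24 h the L-Glu minus urea difference moved down in 4 members, where 17.7% of genes changed, with -2.52 (SE 0.26, adjusted p = 5.66e-09) in GLN2 and -3.33 (SE 0.278, adjusted p = 7.45e-11) in GLU1, the steepest step of both. From 24 to 48 h 6 members changed, against 22.6% of genes. GLT1 moved up by 1.17 (SE 0.217, adjusted p = 0.00017), GLU2 by 1.09 (SE 0.211, adjusted p = 0.000294), GLN1;2 by 0.78 (SE 0.20, adjusted p = 0.00451) and GLN1;3 by 0.74 (SE 0.257, adjusted p = 0.0354), while GLN1;1 moved down (-1.47, SE 0.287, adjusted p = 0.000327) and GLU1 too (-1.06, SE 0.278, adjusted p = 0.00532). With equal totals the GLU1 change was -0.49 (adjusted p = 0.205). That of GLN1;3 was not called without urea 24 h replicate 1 or 3, urea 48 h replicate 2, L-Glu 24 h replicate 2 (0.63 to 0.72, adjusted p from 0.0624 to 0.0956) or L-Glu 48 h replicate 2 (0.40, adjusted p = 0.179). From 6 to 48 h 7 of the 8 changed, 3 up and 4 down, against 35.5% of genes, and GLN1;4 did not pass (-1.12, SE 0.472, adjusted p = 0.062). The split was 1 up and 4 down under quantile normalization and 1 up and 5 down with equal totals. The call of GLN1;2 from 6 to 48 h (-0.51, adjusted p = 0.0451) was lost with only the compared groups fitted (adjusted p = 0.163) and with no intensity trend (adjusted p = 0.0518). It was also lost without several single libraries, urea 48 h replicate 1 (-0.35, adjusted p = 0.178) and L-Glu 6 h replicate 2 (-0.40, adjusted p = 0.139) among them.

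The make-up of each family was described per kb of exon, while sums over marker genes were not corrected for length. GLN2 held 74.4% ± 1.05 (SD, n = 3) of the summed GS value in mock, 67.0% ± 1.83 in urea at 6 h and 44.4% ± 8.09 in urea at 48 h. In L-Glu its share was 51.7% ± 0.547, 34.2% ± 3.91, 12.99% ± 4.37 and 8.41% ± 3.07 at 6, 12, 24 and 48 h. From 12 h on, GLN1;1 held the largest share in L-Glu, with 55.9% ± 5.40 at 12 h, 66.0% ± 6.01 at 24 h and 42.9% ± 6.199 at 48 h. The summed GS value per kb was 5864 ± 521 in mock. At 48 h it was 4103 ± 457 with urea and 1278 ± 268 with L-Glu.

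Among the glutamate synthase genes, GLU1 held 84.9% ± 1.34 of the summed value per kb in mock and between 75.9% and 87.0% on average in every urea and SA group. In L-Glu its share was 83.9% ± 0.543 at 6 h, 70.1% ± 2.71 at 12 h, 12.4% ± 2.80 at 24 h and 2.196% ± 0.446 at 48 h. GLT1 then held 61.5% ± 0.671 at 24 h and 68.7% ± 2.47 at 48 h, and GLU2 26.1% ± 3.46 and 29.1% ± 2.07. The summed GOGAT value per kb fell from 1483 ± 352 in mock to 175 ± 23.7 in L-Glu at 24 h and was 334 ± 59.1 at 48 h, against 897 ± 7.49 in urea at 48 h. These shares carry no test.

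**Figure D3:**
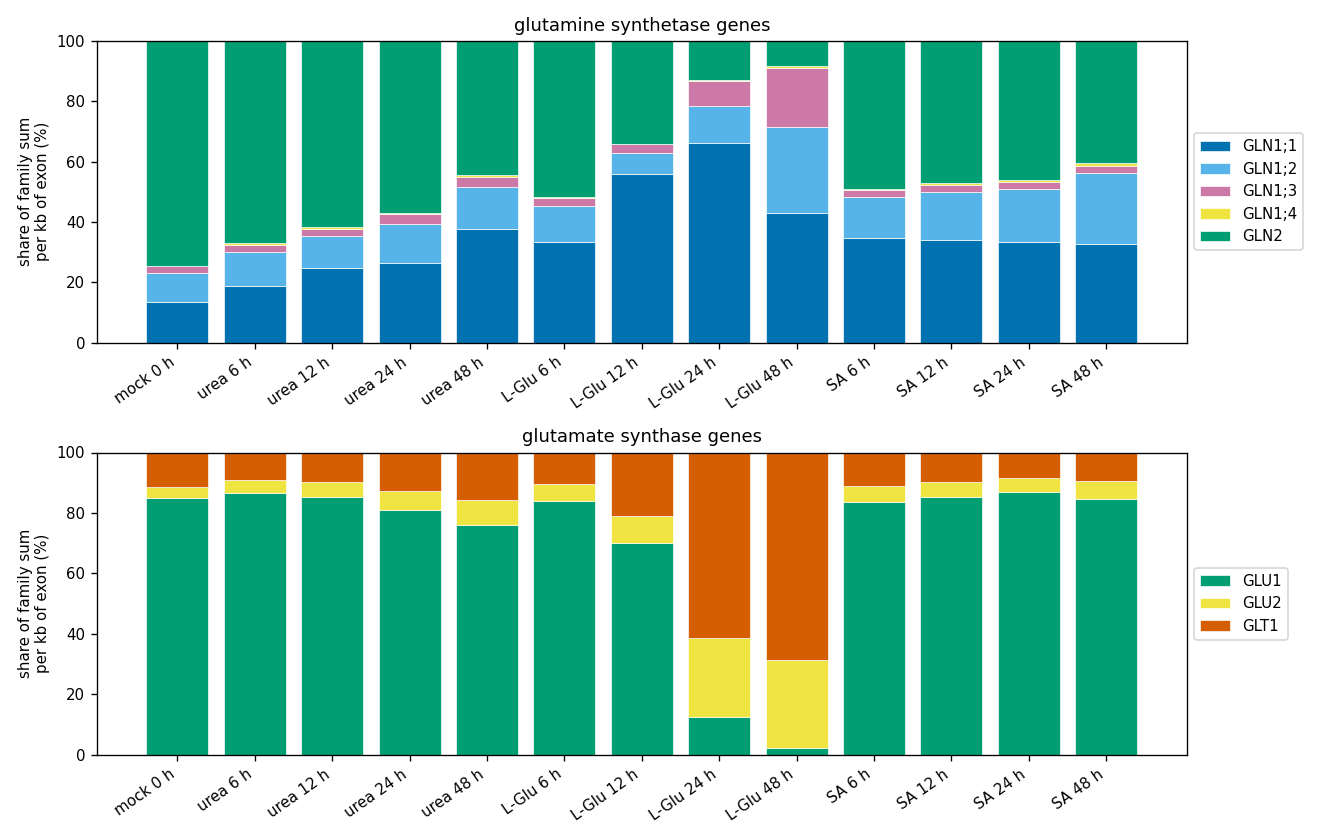
Mean share (%, 3 libraries a group) of each gene in the summed value per kb of exon of its family, for the 13 groups. GLN2 and GLU1, green at the top of the upper panel and the base of the lower one, hold 74.4% and 84.9% in mock and 8.41% and 2.196% in L-Glu at 48 h.

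SA, a defence hormone, gave another pattern, described here against the same urea libraries as L-Glu. Those urea libraries also differ from the SA libraries in added nitrogen. GLN1;1 read 3713, 3922 and 3932 at 6 h, 3943, 3702 and 3737 at 12 h, 3390, 2857 and 3126 at 24 h and 2492, 2615 and 2483 at 48 h. It was above urea without overlap at 6, 12 and 24 h and within the urea range at 48 h. The differences were 1.13 (SE 0.203, adjusted p = 4.92e-05), 0.77 (adjusted p = 0.00353), 0.59 (adjusted p = 0.0253) and 0.07 (adjusted p = 0.849), and the 24 h call was lost without urea replicate 2 or 3 or SA replicate 1 or 3 (adjusted p = 0.119, 0.0631, 0.0919 and 0.0596, values 0.48 to 0.59) and under quantile normalization (0.46, adjusted p = 0.0914) or equal totals (0.48, adjusted p = 0.0769). GLN1;2 read 1784, 1510 and 1612, then 1983, 1836 and 1817, then 1816, 1588 and 1873, then 1891, 1860 and 2010. Each of its SA libraries was above each urea library of its time, and it was higher by 0.52, 0.90, 0.70 and 1.02 (SE 0.142, adjusted p = 0.00543, 6.64e-06, 0.000239 and 8.61e-07).

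Neither gene of the leaf plastid pair was called lower in SA at any time. GLN2 read 6788 to 7906, 6635 to 7532, 5446 to 5925 and 3802 to 4424 in order of time, and its averaged difference from urea was -0.05 (SE 0.0919, adjusted p = 0.651, 95% interval -0.24 to 0.14). At 6 h its SA libraries were all below the urea libraries, but the difference was not called (-0.21, SE 0.184, adjusted p = 0.425). At 12, 24 and 48 h they overlapped. GLU1 read 6382 to 9466, 6950 to 10600, 6836 to 7319 and 4818 to 6182, and was higher on average by 0.33 (SE 0.0983, adjusted p = 0.00509), though by 0.22 (adjusted p = 0.0667) with equal totals. At 6 h GLU2 (507, 497 and 635) and GLT1 (1398, 1372 and 1592) were above urea, by 0.51 (adjusted p = 0.00936) and 0.48 (adjusted p = 0.0172). Both calls were lost without SA replicate 3 (0.39 and 0.41, adjusted p = 0.0789 and 0.0826), and that of GLT1 without urea replicate 2 or 3 (adjusted p = 0.0518 and 0.0567). Quantile normalization also ended both (0.38 and 0.35, adjusted p = 0.068 and 0.0917), and equal totals ended that of GLT1 (0.43, adjusted p = 0.0502). Over the 8 members, SA against urea gave 4 called at 6 h (29.4% of all genes called), 2 at 12 h (31.8%), 2 at 24 h (30.6%), 1 at 48 h (28.4%) and 3 averaged (57.4%, of which 28.2% higher and 29.2% lower), all higher. The 6 h count was 2 without SA replicate 3, the 24 h count 1 without any of the 4 libraries named for it, and the 48 h count 2 without urea replicate 2 or SA replicate 1, where GLT1 came in lower (-0.50 and -0.47, adjusted p = 0.0248 and 0.0453), as it did without both libraries that stood apart (-0.38, adjusted p = 0.0418).

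From 6 to 48 h the SA minus urea difference fell by 1.07 in GLN1;1 (SE 0.287, adjusted p = 0.0164) and by 0.86 in GLT1 (SE 0.217, adjusted p = 0.0104), 2 of 8 where 7.41% of genes changed. The call of GLN1;1 was lost without urea 48 h replicate 1 (-0.85, adjusted p = 0.077). Both calls were lost without replicate 1 of every group (adjusted p = 0.182 and 0.101) or without replicate 3 (adjusted p = 0.169 and 0.192). The change in GLU2 was at -0.65 (adjusted p = 0.0514) and passed without both libraries that stood apart (-0.65, adjusted p = 0.0426). In SA, root markers were low: 10 of 12 were called lower and 0 higher averaged over the times, where 29.2% of all genes were lower and 28.2% higher. Their summed values were 480 to 1834 over all SA libraries, and 1 was at 0 in every SA library at 48 h. In each of those 48 h libraries 505 to 657 of all genes were at 0. Of the 17 green markers, 11 were called lower and 0 higher in SA averaged over the times, with a median of -0.30, and 5, 4, 7 and 0 were lower in order of time. At those times 29.4%, 31.8%, 30.6% and 28.4% of all genes were called in either direction. The green marker counts by time are not by themselves a result. They summed to 119320 to 142533 in SA at 6 h, where urea gave 164945 to 178773, and to 84981 to 101971 at 48 h. Of the 4 phloem markers, 2 were higher and 0 lower averaged, as at 24 and 48 h, and they summed to 1718 to 1994 in SA libraries at 48 h. Their part in these values was not tested.

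Set directly against SA, L-Glu gave lower values in most members. All 8 were called in the average, 7 lower and GLN1;3 higher (0.21, SE 0.091, adjusted p = 0.0355), where 72.9% of all genes were called, but the call of GLN1;3 ended under 14 of 38 alternatives. Among these were leaving out L-Glu 48 h replicate 2 (0.13, adjusted p = 0.109) or both libraries that stood apart (0.11, adjusted p = 0.192), quantile normalization (0.14, adjusted p = 0.136) and equal totals, where its sign turned (-0.19). The largest averaged differences were -4.10 in GLU1, -2.27 in GLN2 and -2.05 in GLN1;4 (SE 0.0983, 0.0919 and 0.167), and GLN1;2 was at -1.55 (SE 0.0709, adjusted p = 7.68e-20). At 6 h 4 members were called (33.3% of genes), at 12 h 6 (52.5%), at 24 h 6 (62.5%), all lower, and at 48 h 8 (58.9%), with GLN1;3, GLU2 and GLT1 higher. The call of GLU2 at 48 h (0.52) was lost under quantile normalization (0.31, adjusted p = 0.0923) and with equal totals (0.19, adjusted p = 0.323). At 6 h GLN1;1 was at -0.49 (adjusted p = 0.0629) and was called without both libraries that stood apart (-0.53, adjusted p = 0.0452). GLN1;1 did not differ beyond its error between L-Glu and SA at 12 h (0.24, SE 0.203, adjusted p = 0.321, 95% interval -0.17 to 0.66). At 48 h GLT1 was 1.07 higher in L-Glu (SE 0.153, adjusted p = 2.69e-07) and GLU1 lower (-7.04, SE 0.197, adjusted p = 1.23e-24).

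Urea was set against mock at 6 h only. As mock was sampled at 0 h alone, urea and time in culture cannot be told apart. At 6 h against mock only GLN1;4 was called, at 36.1, 45.4 and 46.0 against 9.6, 22.1 and 14.1 (1.48, SE 0.334, adjusted p = 0.0119), 1 of 8 where 1.76% of genes were called. Urea libraries were all above mock libraries, but the call was lost without mock replicate 1 (1.21, adjusted p = 0.13), urea replicate 2 (1.43, adjusted p = 0.0599) or urea replicate 3 (1.42, adjusted p = 0.0742), and mock and urea also differ in time. From 6 to 48 h in urea, 2 of 8 members changed, GLN2 and GLU1, where 15.8% of genes were called.

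The order of the group means is given as a description. GLU1 spanned a 206-fold range from SA at 12 h (8175) to L-Glu at 48 h (39.68), and GLN2 a 42.8-fold range from mock (9179) to L-Glu at 48 h (214.7). For both genes the last steps of the order, from L-Glu at 12 h to 24 h and on to 48 h, separated groups without overlap. Most neighbours above them overlapped (5 of 12 neighbouring pairs were separate for GLN2 and 4 of 12 for GLU1). The share of separate pairs over all genes was not computed, so these counts are not by themselves a result. GLN1;4 spanned 8.92-fold, GLN1;1 5.20-fold and GLN1;2 4.87-fold, each lowest in L-Glu at 24 or 48 h. GLT1 and GLU2 spanned 2.71-fold and 2.70-fold with their highest mean in L-Glu at 48 h (1753 and 552.7) and their lowest in L-Glu at 6 h and 12 h (646.1 and 204.8). GLN1;3 spanned 2.09-fold, and none of its 12 neighbouring pairs was separate.

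Across the 13 group means, as a description over points that share one normalization, GLN2 and GLU1 followed each other with r = 0.98, GLN1;2 and GLN1;4 with 0.89, and GLU2 and GLT1 with 0.83. By the same measure the genes of the table most like GLN2 were PSBO1 and NdhL (0.997 each) and HCF136 (0.996), proteins of photosystem II, the chloroplast NDH complex and photosystem II assembly. GLU1 was closest to PTAC4 (0.998), AT5G03880 (0.997) and AT4G32590 (0.996), and GLN1;2 to RNS2, a ribonuclease (0.984). GLT1 was closest to MP, an auxin response factor (0.920), GLU2 to TPR3, a Topless-related corepressor (0.938), GLN1;1 to ABCC12, an ABC transporter (0.915), GLN1;3 to AT3G07090 (0.955) and GLN1;4 to AT4G35270 (0.966).

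The reactions around the cycle were followed in 4 lists, whose counts stand against 33.0% of all genes called higher and 36.4% lower in L-Glu, and 28.2% and 29.2% in SA, averaged over the times. All 13 genes of the photorespiratory cycle, which releases the ammonium that GS2 recaptures, fell in L-Glu averaged over the times, with a median of -2.47. The largest falls were in GOX1 (glycolate oxidase, -3.65, SE 0.102), GLDH1 (glycine decarboxylase H protein, -3.41, SE 0.116), SHM1 (serine hydroxymethyltransferase, -3.30, SE 0.101) and PLGG1 (plastid glycolate glycerate transporter, -3.18, SE 0.151) and the largest of their adjusted p values was 1.9e-19. By time, 4, 12, 13 and 13 of the 13 were lower and 0 higher, where 3.15%, 21.9%, 31.3% and 27.6% of all genes were lower. In SA 7 were lower and 1 higher, with a median of -0.32.

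Of 11 genes that supply carbon skeletons and electrons, 10 fell in L-Glu and 0 rose, with a median of -0.86. FNR1 and FNR2, leaf ferredoxin-NADP reductases, fell by 2.53 and 2.35, and the leaf ferredoxins FD2 and FD1, electron donors of GLU1's enzyme, fell by 2.16 and 1.30 (SE 0.0756, 0.127, 0.107 and 0.13). RFNR2, a root isoform, was at -0.13 (SE 0.103, adjusted p = 0.269) and was the 1 not called, so RFNR1 and FD3 were among the 10 that fell. By time, 2, 7, 11 and 7 of the 11 were lower and 0 higher, where 3.15%, 21.9%, 31.3% and 27.6% of all genes were lower. RFNR2 too was thus called lower at 24 h. In SA 3 of the 11 were higher and 4 lower.

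Of the genes that bring in ammonium and nitrate, 10 measured of 11 listed, 4 rose and 4 fell in L-Glu, shares near those of all genes. AMT2;1, an ammonium transporter, rose by 2.14 (SE 0.163, adjusted p = 8.36e-14), and the nitrite reductase NIR1 and the nitrate reductases NIA1 and NIA2 fell by 2.08, 1.59 and 1.42 (SE 0.101, 0.219 and 0.16). In SA 5 rose and 3 fell.

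Of the genes that use glutamate and glutamine, 17 measured of 19 listed, 7 were higher and 7 lower in L-Glu, also near the shares of all genes, with a median of 0.05. GAD4, a glutamate decarboxylase that makes GABA, rose by 5.59 (SE 0.241, adjusted p = 1.36e-20), while GAD2 fell by 1.02 (SE 0.0594). ASN1, a glutamine-dependent asparagine synthetase, rose by 1.63 (SE 0.244, adjusted p = 3.87e-07), and ASN2 fell by 1.03 (SE 0.0942). In SA 11 of the 17 were higher and 4 lower. Of 7 usual reference genes, 1 was higher and 3 lower in L-Glu, with GAPC1 at 0.65, SAND at -0.55, UBC9 at -0.54 and ACT2 at -0.48, so differences of that size occur in genes used as constant.

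**Figure D4:**
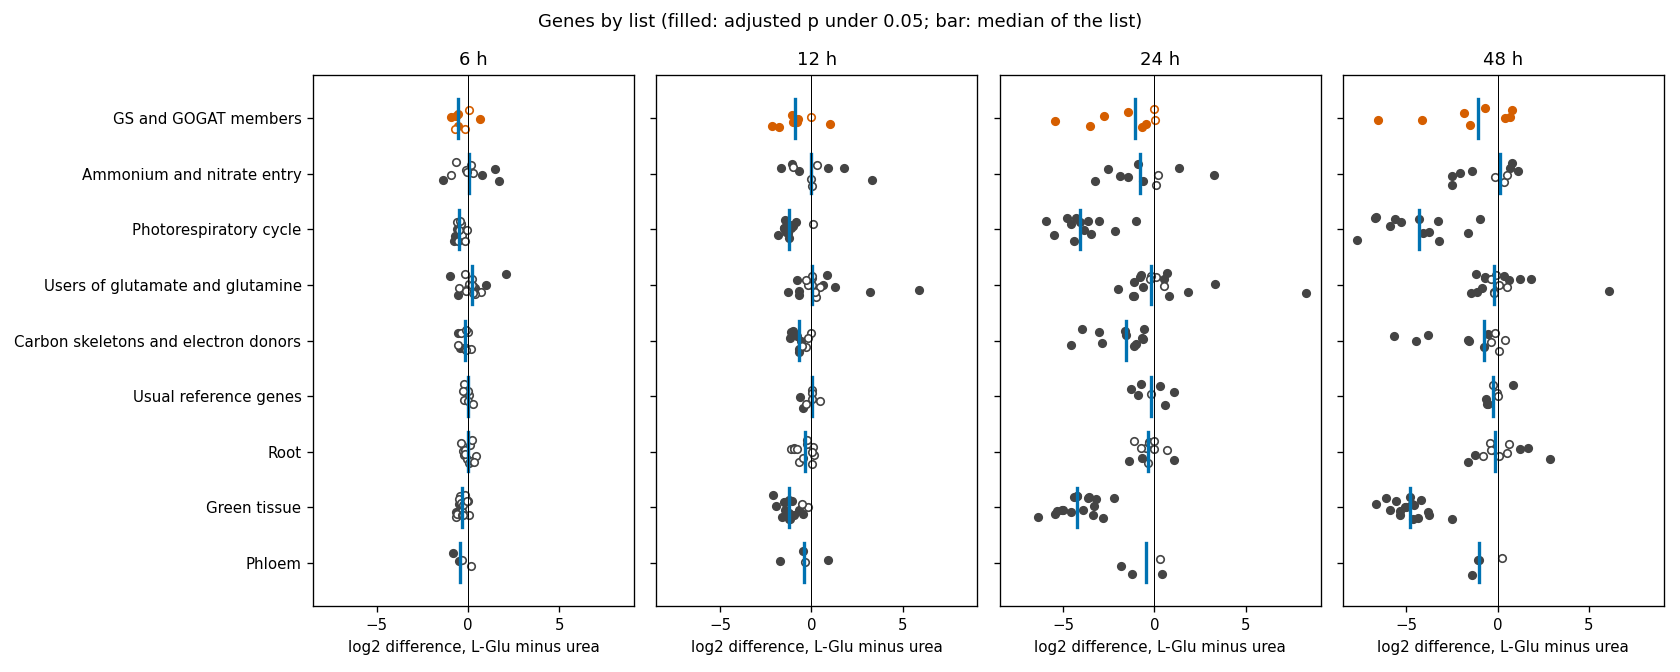
Difference in log2(value + 1) between L-Glu and urea at each time for the 8 members and the genes of 8 lists, filled where the adjusted p was under 0.05, with a bar at each list's median. The photorespiratory and green tissue lists move to medians of -4.30 and -4.82 at 48 h, and the other 6 lists have medians there between -1.04 and 0.13.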

How the data were processed

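The deposited table holds normalized signal for 20001 genes in 39 libraries, and every value column was matched to a sample. The submitters' processing notes name the build TAIR10 and, without roles, the tools edgeR 3.22.3, HTSeq 0.6.0 and TopHat2 2.1.0, and no source used here says how the authors scaled the signal. Library totals differ while medians are close. Whole reads were not recovered, so depth is unknown and no count model was run. Here limma 3.58.1 (R 4.3.3) was fitted to log2(value + 1) of all 39 libraries, with a mean for each of the 13 groups, 26 residual degrees of freedom and a variance that follows the mean level, in 22 comparisons with two-sided tests and Benjamini-Hochberg adjustment over all genes. Comparisons with urea share its libraries.

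On simulated data of 20001 genes for L-Glu against urea at 6 h, the fit recovered 58 of 100 genes changed by 1 and 90 of 100 changed by 2 on the log2 scale. No other genes were changed there, and noise was drawn independently for each gene. In the data 11.5% of all genes were called in that comparison, so the recovery need not hold for them. The members are always named. List genes named are up to 4 per list, the largest called differences in the averaged L-Glu comparison with a mean of at least 10, and RFNR2, PSBO2 and FBA2 were added after their values were seen. Genes most like a member were ranked by Pearson correlation over group means. The members and lists (95 genes, 91 measured) were chosen with earlier results of these data known. Levels per kb use exon lengths from the RefSeq annotation of TAIR10.1, and coding sequences were aligned with MAFFT 7.526. Alternatives were other pseudocounts, filters and scalings, a replicate block, no intensity trend, fits of the compared groups only, and libraries left out.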

Additional observations from a re-analysis of the deposited data

Results flagged for a closer look

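The changes with time of the L-Glu minus urea difference that passed the test of the change itself (limma, adjusted over all genes) are gathered here on the log2 scale. From 6 to 12 h they were -0.60 in GLN1;2 and -1.21 in GLU1. From 12 to 24 h they were -1.05 in GLN1;1, -0.69 in GLN1;2, -2.52 in GLN2 and -3.33 in GLU1. From 24 to 48 h they were -1.47 in GLN1;1, 0.78 in GLN1;2, 0.74 in GLN1;3, -1.06 in GLU1, 1.09 in GLU2 and 1.17 in GLT1. From 6 to 48 h they were -2.15 in GLN1;1, -0.51 in GLN1;2, 0.76 in GLN1;3, -3.58 in GLN2, -5.60 in GLU1, 0.90 in GLU2 and 1.38 in GLT1. The SA minus urea difference changed from 6 to 48 h by -1.07 in GLN1;1 and by -0.86 in GLT1. Neither was called without replicate 1 or without replicate 3 of every group. Without both libraries that stood apart, GLN1;2 was no longer called from 6 to 12 h (-0.49, adjusted p = 0.116) or from 6 to 48 h (-0.38, adjusted p = 0.2), and GLN1;3 not from 24 to 48 h (0.40, adjusted p = 0.169) or from 6 to 48 h (0.51, adjusted p = 0.0753).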

How the results depend on the processing

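Of 4192 values of single members under the alternatives, 3961 stayed on their side of the threshold, 173 lost a call, 48 gained one, and 10 that were called before or after changed sign. Of the 3961, 83 that were not called either way also changed sign, to at most 0.55 in size. The cause of these changes was not tested. Quantile normalization and equal library totals moved most, and equal totals moved the median of all genes for L-Glu against urea to -0.53 averaged, -0.47 at 12 h, -1.10 at 24 h and -0.54 at 48 h. Sign changes that involve a call, for L-Glu against urea under quantile normalization, were GLN1;1 (-0.76) and GLN1;3 (-0.05) averaged, and GLU2 (-0.09) and GLT1 (-0.19) at 48 h. With equal totals they were GLN1;1 (-0.48) and GLN1;3 (-0.31) averaged, GLN1;3 at 24 h (-1.04), GLU2 at 48 h (-0.13), and for L-Glu against SA GLN1;3 averaged (-0.19) and at 24 h (-0.78). The number of members called for SA against urea at 6 h was 2 under quantile normalization. For SA against urea at 48 h it was 2 under quantile normalization, with equal totals and without both libraries that stood apart, and 3 with a replicate block. For the change from 6 to 12 h it was 4 under quantile normalization, 5 with equal totals and 1 without both libraries. It was 1 for urea at 48 h against 6 h under quantile normalization, 1 for SA against urea at 24 h with equal totals, 5 for L-Glu against urea at 48 h with equal totals or with only the compared groups fitted, and 2 for urea at 6 h against mock with only those groups fitted.

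With a replicate number or single libraries left out, members called for L-Glu against urea ran from 6 to 7 averaged, 0 to 4 at 6 h, 7 to 7 at 12 h, 5 to 6 at 24 h and 5 to 8 at 48 h. For SA against urea they ran from 2 to 3 averaged, 1 to 4 at 6 h, 1 to 2 at 12 h, 1 to 2 at 24 h and 1 to 2 at 48 h. For L-Glu against SA the ranges were 7 to 8 averaged, 4 to 4 at 6 h, 6 to 6 at 12 h, 5 to 6 at 24 h and 7 to 8 at 48 h. Changes of the L-Glu minus urea difference gave 0 to 2 from 6 to 12 h, 2 to 4 from 12 to 24 h, 4 to 7 from 24 to 48 h and 5 to 7 from 6 to 48 h, that of SA minus urea 0 to 3, urea against mock 0 to 1, and urea at 48 h against 6 h 2 to 2. The 0 for L-Glu at 6 h came without replicate 3 of every group.

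Replicate numbers were not taken to pair the libraries, since no label says that they do. In the 14 pairs of groups compared, deviations of same-numbered libraries correlated by -0.07 to 0.14, and 0 of 14 were over 0.1 for all numbers. Over all pairs of groups the mean was 0.05, against -0.02 for other numbers. Even so, 35 of 39 libraries correlated best with their own number of the 3, more than unrelated numbers would give. The data thus hold a weak structure shared by replicate number, and its source was not tested. With the replicate block 172 of 176 values kept their call, 1 was lost (GLN1;3, L-Glu against urea averaged, adjusted p = 0.05) and 3 were gained, namely GLU1 (0.50, adjusted p = 0.0444) and GLT1 (-0.38, adjusted p = 0.0465) for SA against urea at 48 h and GLU2 for the change of SA minus urea (-0.65, adjusted p = 0.0334). Depth is unknown, so no limit from counting can be given.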
